A study of Mus musculus with 24 samples.

Results

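The genes described here are 38 genes of the endoplasmic reticulum (ER), the compartment in which secreted and membrane proteins are folded. They were chosen by symbol from a written list of ER chaperones and genes of the unfolded protein response, out of 50686 genes in the count tables, and all 38 passed the filter on low counts. The choice was made with earlier results of these data known. By role they are 8 chaperones and cochaperones, 2 lectin chaperones, 10 disulfide and prolyl isomerases, 4 sensors and transcription factors of the response, 7 genes of ER-associated degradation, and 7 genes of translocation, signal peptide cleavage and glycosylation.

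The study measured RNA by stranded mRNA sequencing in brain (the part labelled back left brain) of mice modelling pantothenate kinase-associated neurodegeneration, an inherited disorder of coenzyme A synthesis. The knockout mice, called dKO, were labelled Pank1-/-Syn-Pank2-/- and compared with wild type (WT) mice, all on the C57BL/6 background, in females and males, at day 10 and day 20. The labels do not say what Syn stands for. Each of the 8 combinations of genotype, sex and day had 3 libraries. One of them, dKO male day 10 replicate 3, held 45964 gene counts and was left out, which left 5 dKO libraries at day 10 and 6 libraries in each of the other 3 combinations of genotype and day. The labels do not say that the libraries of a group came from separate mice, so the p-values measure the spread between these libraries. Replicate numbers follow the order of deposition.

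In the unfolded protein response, 3 sensors in the ER membrane, encoded by Atf6, Ern1 (IRE1) and Eif2ak3 (PERK), react to unfolded protein. IRE1 splices the mRNA of Xbp1, and the resulting transcription factor acts with cleaved ATF6 to switch on chaperones such as Hspa5 (BiP), while PERK slows translation and favours the synthesis of ATF4. Cells with a heavy secretory load, and neurons under stress, are known to depend on these genes. The counts used here are per gene and do not show the splicing of Xbp1, the cleavage of ATF6 or any protein level.

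The best known regulatory sequence of this response is the ER stress response element, CCAAT, then 9 bases, then CCACG, at which NF-Y binds the first part and ATF6 or XBP1 the second. Its second form is ATTGG, 1 base, then CCACG. Both were searched on both strands of 300 promoter bases (250 before to 50 after the start of the gene, from RefSeq on GRCm38.p6), which were at hand for 30 of the 38 genes. The matches before the start are shown because they lie in promoters of many of the genes whose levels are reported further on. Each is printed 5′ to 3′ on the strand of the gene with 5 bases on either side, and capitals mark the paired parts of the element. Where the element lies on the opposite strand, its parts read CGTGG and ATTGG.
Hspa5, chr2:34772020-34772048, plus strand: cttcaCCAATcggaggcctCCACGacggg
Hsp90b1, chr10:86705633-86705661, minus strand: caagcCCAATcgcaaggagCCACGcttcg
Hsp90b1, chr10:86705528-86705556, minus strand: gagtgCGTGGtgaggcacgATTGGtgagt
Dnajc3, chr14:118937822-118937850, plus strand: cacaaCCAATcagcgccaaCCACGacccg
Calr, chr8:84847070-84847098, minus strand: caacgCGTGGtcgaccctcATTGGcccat
Canx, chr11:50325795-50325823, minus strand: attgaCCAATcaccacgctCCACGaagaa
Pdia6, chr12:17266486-17266514, plus strand: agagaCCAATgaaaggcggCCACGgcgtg
Creld2, chr15:88819515-88819543, plus strand: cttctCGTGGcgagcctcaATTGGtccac
Derl3, chr10:75893237-75893265, plus strand: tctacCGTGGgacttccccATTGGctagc
Syvn1, chr19:6046527-6046555, plus strand: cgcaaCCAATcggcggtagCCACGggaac
Herpud1 (second form), chr8:94386372-94386392, plus strand: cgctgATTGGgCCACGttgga

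The first form was found in 9 of the 30 promoters (30.0%), and in 37 of all 27025 genes with a promoter (0.137%). The element was described in the literature from promoters of such chaperone genes, so this share is no finding of these data. The nearest match of the first form to the start was in Syvn1, whose element ended 26 bases before it. In Hspa5 the element lay between 65 and 47 bases before the RefSeq start. The GENCODE gene of Hspa5 starts further upstream, at 34771970, so the printed match lies inside it. Hsp90b1 had 2 matches, on opposite strands. The second form was found in Herpud1 and, past the start, in Dnajb11, and in 12 of all genes (0.0444%). For Sdf2l1, Pdia4 and Xbp1 neither form was in the window, which says only that these letters were not there.

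Gene counts ran from 9191988 to 44738612 per library, at which 1 count was worth 0.0224 to 0.109 CPM, the level unit used here, which scales each library to a common total. Pank1 was at 6.71 to 8.12 CPM in dKO and 19.5 to 26.7 CPM in WT at day 20, and at 7.17 to 8.87 against 20.99 to 24.7 CPM at day 10, so its level followed the labels in every library used. Pank2 overlapped between genotypes at day 10 and did not at day 20 (38.5 to 46.3 against 52.6 to 61.3 CPM). None of the markers of neurons, astrocytes and oligodendrocytes was at 0. One library stood apart at day 10: dKO male day 10 replicate 2 had a summed choroid plexus marker level of 34.5 CPM, where the other day 10 libraries had 274 to 639, and a summed level of proliferating cell markers of 106 CPM, against 208 to 671. At day 20 WT male replicate 3 was the lowest of the 6 WT libraries for 21 of the 38 genes.

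At day 20 most of these genes were lower in dKO brain. Of the 38, 27 fell and 2 rose at an adjusted p under 0.05 (edgeR's quasi-likelihood test, Benjamini-Hochberg adjustment over 21657 genes), where 19.2% of all genes tested fell and 18.8% rose. Their median log2 change was -0.31, against -0.00 for all genes tested. Because the genes were chosen with earlier results of these data known, these shares describe the list and do not test it. The ranges of the 6 dKO and 6 WT libraries did not overlap for 21 of the 38 genes, of which 20 were lower in dKO and 1, Ern1, was higher, where 10.3% of all genes tested lay wholly below and 9.79% wholly above. At day 10 none of the 38 was called in either direction, where 3.23% of all genes tested rose and 1.76% fell; their median log2 change was 0.01, as for all genes tested. At an unadjusted p under 0.05, 6 of the 38 passed at day 10, beside 5294 of all 21657 genes. DESeq2 called 3 lower (Atf6, Eif2ak3 and Syvn1), beside 978 lower and 1127 higher over all genes. In edgeR these 3 were at log2 changes of -0.16, -0.17 and -0.18 at day 10. With limma-voom 0 of the 38 were called, beside 529 lower and 960 higher over all genes. Without dKO male day 10 replicate 2 the count at day 10 was again 0, and without dKO male day 10 replicate 1 it was 3 lower. Over all genes, the day 10 calls went from 700 higher and 381 lower to 8 and 7 without replicate 2, and to 2296 and 2220 without replicate 1. They moved by over 1.5 times in 14 (higher) and 17 (lower) of the 23 fits that left out 1 library.

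**Figure D1:**
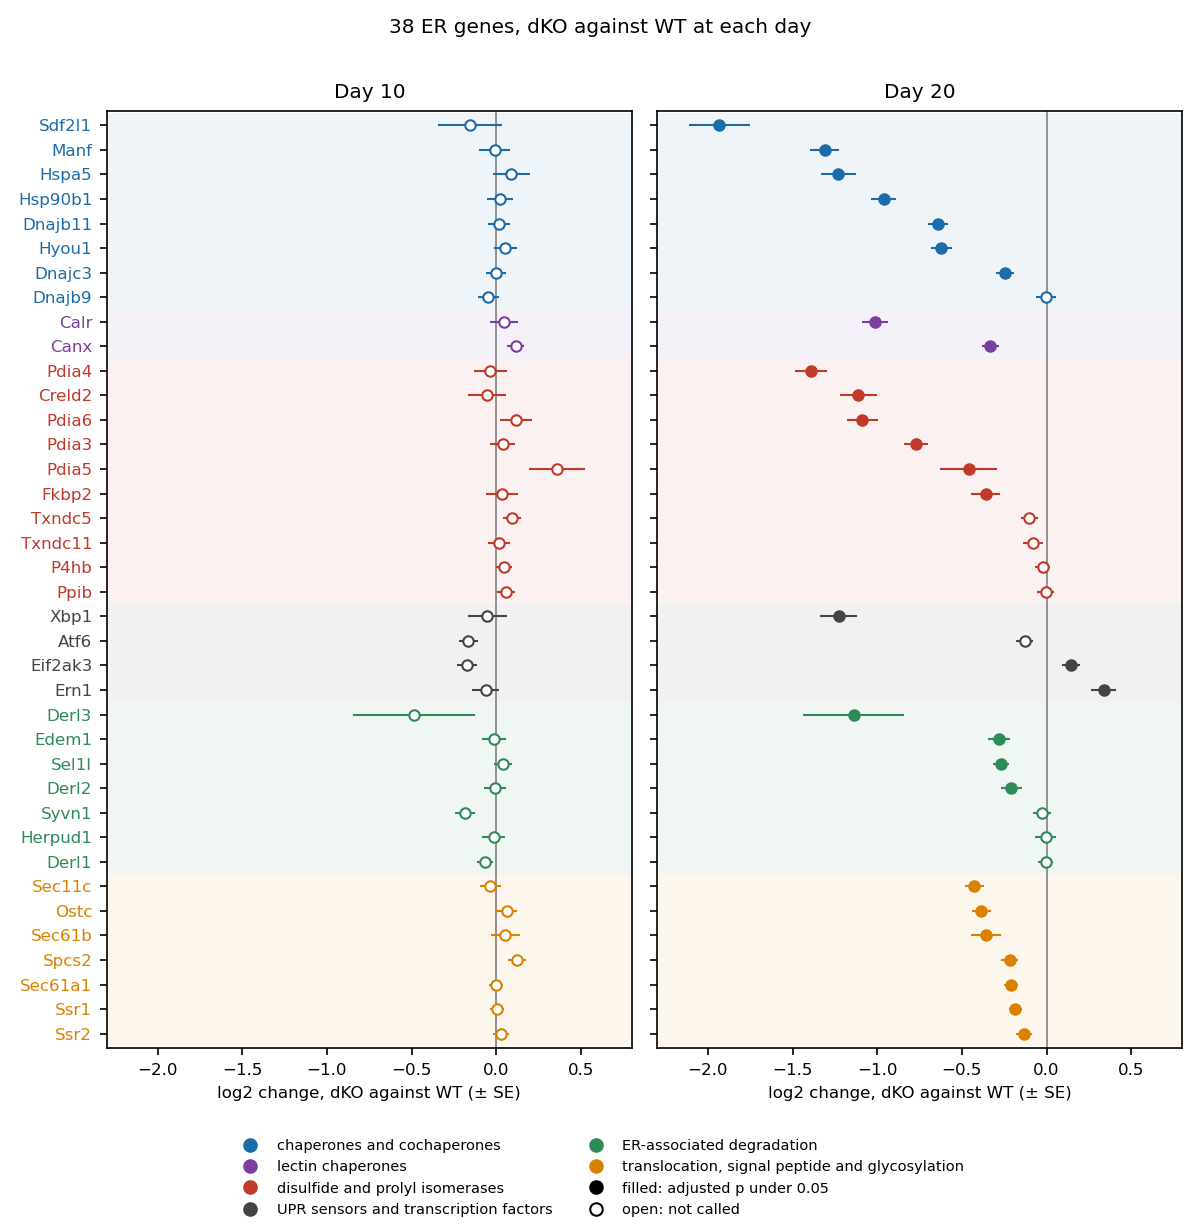
Log2 change of dKO against WT (x axis, with bars of 1 SE) for each of the 38 genes (y axis) at day 10 and day 20, both sexes together, coloured by role. No point at day 10 is filled, while at day 20 the filled points of all roles but the sensors lie to the left of 0, from -1.93 for Sdf2l1 to -0.13 for Ssr2.

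Of the 8 chaperones and cochaperones, 7 fell at day 20 and 1 was not called. Hspa5, which encodes BiP, the ER member of the Hsp70 family and the partner that holds the 3 sensors inactive (ENSMUSG00000026864, chr2:34771970-34777547), had 279, 420 and 490 CPM as the lowest, median and highest WT level at day 20, against 155, 168 and 202 CPM in dKO. Every dKO library was below every WT library, and the fitted level was 2.35-fold lower (log2 change -1.23 ± 0.10 SE, adjusted p = 4.58e-08, edgeR). At day 10 the dKO levels of Hspa5 were 279, 257 and 220 CPM in females and 291 and 275 CPM in males, within and around the WT range of 235 to 276 CPM (log2 change 0.09 ± 0.11, adjusted p = 0.669, edgeR). Leaving out WT male day 20 replicate 3, the lowest WT library for Hspa5, gave a log2 change of -1.34. The weakest change with 1 library left out was -1.15, without WT male day 20 replicate 1.

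Manf, a small secreted protein that binds BiP and protects neurons, had 40.0, 51.8 and 59.0 CPM (lowest, median, highest) in WT and 18.6, 19.9 and 24.2 CPM in dKO at day 20. The groups did not overlap (log2 change -1.31 ± 0.09, adjusted p = 4.85e-10, edgeR), and it had the smallest p of the chaperones. Its gene overlaps Rbm15b on the same strand, so the split of reads between them is uncertain. Hsp90b1, the ER form of Hsp90 known as GRP94, had 299, 383 and 443 CPM in WT and 175, 189 and 216 CPM in dKO, again with no overlap (-0.96 ± 0.07, adjusted p = 2.82e-09, edgeR).

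The greatest fold difference of the 38 was that of Sdf2l1, a partner of the BiP cochaperone encoded by Dnajb11. It had 7.13, 12.9 and 15.6 CPM in WT and 2.26, 3.13 and 4.34 CPM in dKO at day 20, a level 3.82-fold lower (-1.93 ± 0.18, adjusted p = 5.5e-08, edgeR). Dnajb11 itself fell by 0.64 on the log2 scale, Hyou1, which serves BiP as a nucleotide exchange factor, by 0.62, and Dnajc3, which encodes the cochaperone P58IPK, by 0.25. Only Dnajc3 of these had overlapping ranges (85.0 to 98.7 CPM in dKO, 94.8 to 120 in WT). Dnajb9, which encodes the cochaperone ERdj4, was the one of the 8 chaperones that was not called: it had 30.8, 35.0 and 36.4 CPM in dKO and 32.0, 34.1 and 36.1 CPM in WT (-0.00 ± 0.06, adjusted p = 0.98, edgeR).

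**Figure D2:**
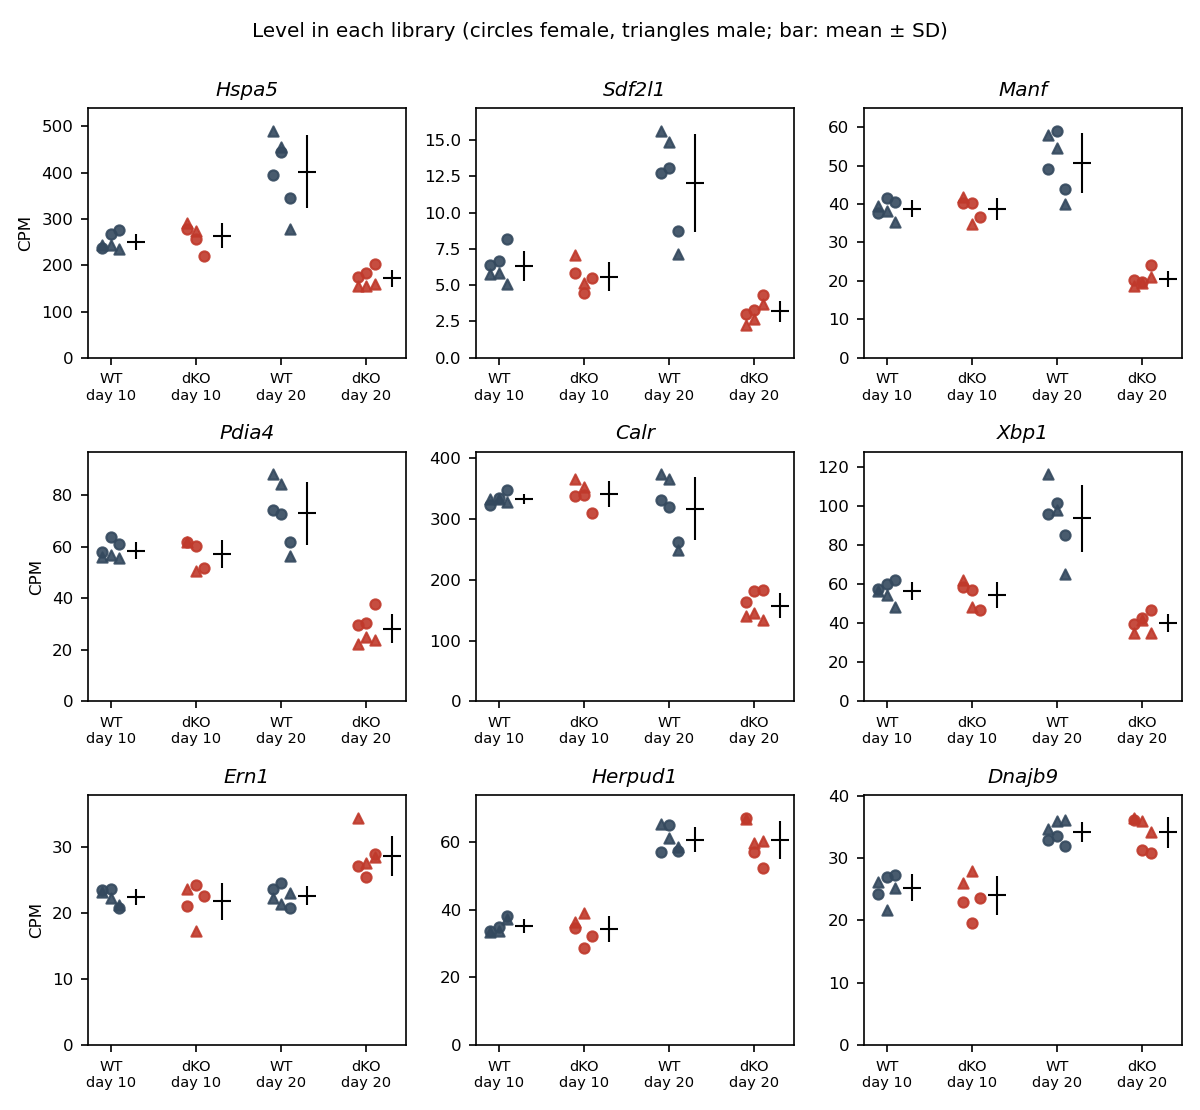
Level in CPM (y axis, from 0) of 9 of the genes in each library of the 4 combinations of genotype and day (x axis), with circles for females, triangles for males and a bar for the mean ± SD. Hspa5, Sdf2l1, Manf, Pdia4, Calr and Xbp1 are lower in all 6 dKO libraries than in all 6 WT libraries at day 20, Ern1 is higher, and Herpud1 and Dnajb9 overlap.

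Both lectin chaperones, which hold newly glycosylated proteins by their sugar chains, fell. Calr, the soluble one, had 249, 326 and 373 CPM in WT and 133, 155 and 183 CPM in dKO at day 20, with no overlap (-1.01 ± 0.08, adjusted p = 3.44e-09, edgeR). Canx, its membrane-bound counterpart, had 488, 541 and 590 CPM in WT and 395, 428 and 486 CPM in dKO, where the highest dKO library was just below the lowest WT library (-0.33 ± 0.05, adjusted p = 1.08e-05, edgeR). Per kb of exon, Canx and Calr had the highest levels of the 38 in WT at day 20 (116 and 110 CPM per kb), followed by Hspa5 (95.0) and Hsp90b1 (92.5). The lowest on that scale were Pdia5 (0.754) and Derl3 (0.922).

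Of the 10 isomerases, which form and rearrange disulfide bonds or turn proline bonds, 6 fell and 4 were not called. Pdia4 (ERp72) had 56.5, 73.3 and 88.1 CPM in WT and 22.3, 27.4 and 37.7 CPM in dKO at day 20 (-1.39 ± 0.09, adjusted p = 1.63e-09, edgeR). Pdia3 (ERp57), the isomerase that works with the lectin chaperones, had 149, 189 and 211 CPM in WT and 99.2, 107 and 117 CPM in dKO (-0.77 ± 0.07, adjusted p = 1.97e-08, edgeR). Neither overlapped between genotypes. Creld2 fell by 1.11 and Pdia6 by 1.09 on the log2 scale, also without overlap, while Pdia5 (by 0.46) and the prolyl isomerase gene Fkbp2 (by 0.36) fell with overlapping ranges. The other 4 were P4hb, the classical protein disulfide isomerase (log2 change -0.02), the prolyl isomerase gene Ppib (-0.00), Txndc5 (-0.10) and Txndc11 (-0.08). P4hb had 106, 117 and 125 CPM in dKO and 116, 118 and 123 CPM in WT, so that among abundant isomerases the levels of Pdia3 separated the genotypes and those of P4hb did not.

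Of the sensors and the transcription factor gene Xbp1, 1 fell, 2 rose and 1 was not called at day 20. Xbp1 had 65.3, 96.8 and 116 CPM in WT and 34.7, 40.7 and 46.8 CPM in dKO at day 20, with no overlap (ENSMUSG00000020484, chr11:5520659-5525893; -1.23 ± 0.11, adjusted p = 1.12e-07, edgeR). Ern1, whose product splices Xbp1 mRNA, had 20.8, 22.7 and 24.7 CPM in WT and 25.5, 28.1 and 34.4 CPM in dKO. All dKO libraries were above all WT libraries, and the level rose by 0.34 ± 0.07 on the log2 scale (adjusted p = 0.000909, edgeR).

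Eif2ak3, which encodes PERK, rose by 0.15 ± 0.05 (adjusted p = 0.0339, edgeR), from 42.6, 44.9 and 49.2 CPM in WT to 46.3, 50.04 and 57.4 CPM in dKO, with overlapping ranges. This call was lost when reads of both strands were counted, with no filter on low counts, and without any one of 6 single libraries (dKO female replicate 1, dKO male replicate 1, WT female replicates 1 and 3, WT male replicates 2 and 3, all of day 20), where the log2 change was 0.12 to 0.14. Atf6 had 73.1, 75.3 and 79.7 CPM in WT and 64.2, 70.2 and 72.7 CPM in dKO: the ranges did not overlap, but the difference of -0.13 ± 0.05 missed the threshold (adjusted p = 0.0503, edgeR) and passed it in limma-voom, in the fit of only the groups compared, with 1 surrogate variable, when both strands were counted, and without any one of 6 day 10 libraries (dKO female replicates 1 and 2, dKO male replicates 1 and 2, WT male replicates 1 and 3), at log2 changes of -0.12 to -0.14.

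ER-associated degradation, which takes misfolded protein back to the cytosol for the proteasome, was divided: 4 of 7 fell and 3 were not called. Sel1l, the adaptor of the ubiquitin ligase HRD1, had 215, 237 and 262 CPM in WT and 186, 199 and 205 CPM in dKO at day 20 (-0.27 ± 0.05, adjusted p = 0.000129, edgeR). Edem1, which recognises trimmed sugar chains, had 33.9, 35.8 and 36.6 CPM in WT and 26.6, 29.5 and 31.5 CPM in dKO (-0.28 ± 0.06, adjusted p = 0.00129, edgeR). Neither gene's ranges overlapped. Derl2 fell by 0.21 and Derl3 by 1.14 ± 0.30, the latter at only 0.384 to 1.32 CPM in dKO and 1.07 to 3.02 CPM in WT. Herpud1 (52.5 to 67.2 CPM in dKO, 57.1 to 65.5 in WT), Derl1 and Syvn1, which encodes HRD1 itself, had log2 changes of -0.00, -0.00 and -0.03.

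All 7 genes of protein entry and early processing fell, by 0.13 to 0.43 on the log2 scale. Sec11c, a catalytic subunit of the signal peptidase, had 35.5, 37.9 and 39.3 CPM in WT and 26.1, 28.2 and 30.9 CPM in dKO at day 20 (-0.43 ± 0.06, adjusted p = 5.27e-06, edgeR). Ostc, a subunit of the oligosaccharyltransferase, had 20.3, 22.0 and 25.3 CPM in WT and 15.4, 16.9 and 19.5 CPM in dKO (-0.38 ± 0.06, adjusted p = 1.69e-05, edgeR). The translocation channel genes Sec61b and Sec61a1 fell by 0.36 and 0.21, and these 4 did not overlap between genotypes. The signal peptidase gene Spcs2 (by 0.22) and the translocon-associated genes Ssr1 (by 0.18) and Ssr2 (by 0.13) fell with overlapping ranges.

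A requirement of more than 1.2-fold (edgeR's glmTreat) left 15 of the 27 genes that fell at day 20 and neither of the 2 that rose. Over all 21657 genes tested, this requirement left 1372 lower and 1533 higher. Leaving out 1 library at a time kept the count lower between 25 and 28.

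Markers of other cells moved with this difference at day 20. In bulk tissue, fewer cells of a type and less RNA per cell cannot be told apart. Day 20 calls in these lists stand beside 19.2% lower and 18.8% higher over all genes tested. Summed over each list, myelinating oligodendrocyte markers were at 11070 to 14068 CPM in dKO and 14418 to 18853 in WT. Of these 6 markers, 2 were called lower. Microglia markers were at 52.7 to 90.8 against 110 to 130 CPM (5 of 6 lower). Endothelial markers were at 125 to 164 against 193 to 209 CPM (5 of 6 lower). Pericyte and smooth muscle markers were at 91.8 to 110 against 146 to 190 CPM (2 of 5 lower, 1 higher). Erythrocyte markers were at 75.8 to 131 against 320 to 676 CPM (6 of 6 lower). Meningeal fibroblast markers were at 155 to 197 against 202 to 286 CPM, with 5 of 6 called lower and 1 higher. Proliferating cell markers were at 3.71 to 5.35 against 9.19 to 18.4 CPM (4 of 6 lower), and choroid plexus markers at 231 to 529 against 524 to 679 (4 of 8 lower). Immature neuron markers were at 157 to 205 against 210 to 234 CPM (2 of 5 lower), and oligodendrocyte precursor markers at 241 to 318 against 281 to 330 (2 of 5 lower, 1 higher). Neuron markers were at 2634 to 2904 CPM in dKO and 2998 to 3145 in WT (2 of 7 lower). Astrocyte markers were at 2521 to 2703 against 2682 to 2815 CPM (2 of 6 lower, 1 higher). Plasma and B cells, which secrete heavily, had markers summing to 5.27 to 9.51 CPM in dKO and 8.35 to 13.1 in WT. Of the 7, 5 were under a mean of 0.5 CPM, and of the 2 tested 1 was called lower and 1 higher. At day 10, where none of the 38 genes was called, 3 of the 6 myelinating oligodendrocyte markers were called lower (list median -0.60), with sums of 3683 to 5809 CPM in dKO and 5455 to 11134 in WT. The 11134 was WT female day 10 replicate 3, and the next highest WT library was at 7343 CPM. One neuron marker was called higher, and no marker of the other lists was called at that day. These day 10 calls stand beside 1.76% lower and 3.23% higher over all genes tested. The part of these cell types in the result was not tested.

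The 2 days were compared within each genotype and with each other. In WT brain 24 of the 38 genes rose from day 10 to day 20 and 8 fell, where 25.5% of all genes tested rose and 24.9% fell. In dKO brain 10 rose and 24 fell, where 30.4% rose and 31.2% fell. The WT median log2 change was 0.25 and the dKO median -0.33, against 0.01 and -0.01 for all genes tested. The difference between the dKO effect at day 20 and at day 10 (the genotype by day term) was called for 26 of the 38, 24 of them lower and 2 higher, where 14.7% of all genes tested were lower and 13.6% higher. This term and the day 20 comparison share the day 20 libraries, so the 2 counts are not separate results.

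All 8 chaperones rose with age in WT. Hspa5 rose by 0.68 ± 0.10 in WT, from a day 10 range of 235 to 276 CPM, and fell by 0.64 ± 0.11 in dKO. Sdf2l1 rose by 0.92 in WT and fell by 0.86 in dKO, Manf rose by 0.38 and fell by 0.92, and Hsp90b1 rose by 0.44 and fell by 0.55. Xbp1 showed the same opposed directions, with a rise of 0.73 ± 0.11 in WT and a fall of 0.45 ± 0.12 in dKO. The genotype by day terms were -1.32 for Hspa5, -1.78 for Sdf2l1, -1.30 for Manf, -0.99 for Hsp90b1 and -1.17 for Xbp1. Calr did not pass the test in WT (-0.07 ± 0.08, adjusted p = 0.447, edgeR) and fell by 1.13 ± 0.08 in dKO.

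Herpud1 and Dnajb9 rose with age in both genotypes, by 0.79 and 0.80 for Herpud1 and by 0.44 and 0.48 for Dnajb9 (WT, then dKO). Their genotype by day terms were 0.01 ± 0.09 and 0.04 ± 0.09 and were not called. Ern1 did not pass the test in WT (0.01 ± 0.07, adjusted p = 0.931, edgeR) and rose by 0.41 ± 0.08 in dKO, and Eif2ak3 rose by 0.27 in WT and by 0.59 in dKO. These were the 2 genes called higher on the genotype by day term, at 0.40 ± 0.11 and 0.32 ± 0.08. For Eif2ak3 part of this term came from day 10, where dKO was at -0.17 ± 0.06 against WT (adjusted p = 0.0778, edgeR). Its dKO effect at day 20 was 0.15 ± 0.05. The genes of translocation mostly fell with age, 4 of 7 in WT and 6 of 7 in dKO. Over all genes tested, 24.9% fell in WT and 31.2% in dKO. Sec61b was lower by 0.79 in WT and by 1.198 in dKO on the log2 scale, while Sec11c rose by 0.44 in WT.

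The ranges at day 20 and day 10 in WT did not overlap for 12 of the 38 genes that were higher at day 20 and 7 that were lower, where 15.6% of all genes tested lay wholly above and 16.3% wholly below. The 12 held Hspa5, Hsp90b1, Xbp1, Atf6, Herpud1 and Sel1l, and the 7 held P4hb, Ppib, Sec61a1 and Ostc.

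**Figure D3:**
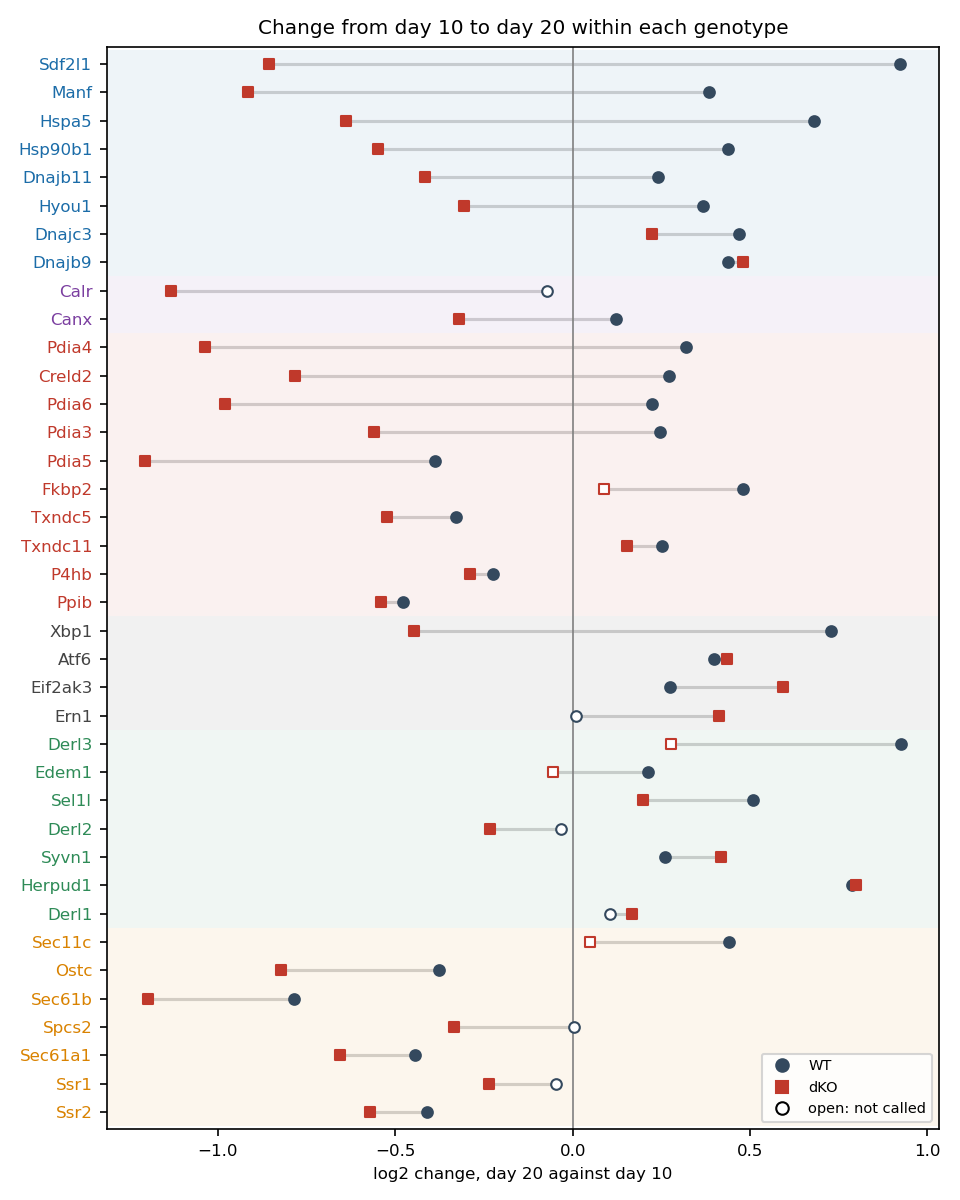
Log2 change from day 10 to day 20 (x axis) in WT (circles) and dKO (squares) for each of the 38 genes (y axis), open where not called. Squares lie to the left of the circles for most genes, and the pairs of Herpud1 (0.79 and 0.80) and Dnajb9 (0.44 and 0.48) nearly coincide.

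The sexes were compared at day 20. In females 15 of the 38 fell and 0 rose, where 5.18% of all genes tested fell and 5.17% rose, and in males 26 fell and 2 rose, where 17.3% fell and 17.3% rose. The 15 included Hspa5 (-1.08 ± 0.15 in females, -1.38 ± 0.15 in males), Xbp1 (-1.13 ± 0.16 and -1.33 ± 0.16), Manf (-1.25 ± 0.12 and -1.37 ± 0.12) and Pdia4 (-1.10 ± 0.13 and -1.68 ± 0.13). The test of the difference between the sexes itself (genotype by sex) called 0 of the 38 and 0% of all genes tested in either direction in edgeR, with 10 of the 38 at an unadjusted p under 0.05. Over all 21657 genes, 3220 were under that unadjusted p. DESeq2 called 1, Ostc, beside 164 lower and 183 higher over all genes, and limma-voom called 0. The fit of only the groups compared called 2, Syvn1 and Ostc. The count over all genes in that fit was not computed, so these 2 have no share beside them. Ostc was at -0.15 ± 0.08 in females and -0.61 ± 0.08 in males (difference -0.46 ± 0.12, adjusted p = 0.084, edgeR).

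The day 20 change was set beside the promoter elements as a description. Of the 9 genes with the first form, 8 fell, with a median log2 change of -1.01, and of the 21 with a promoter but without it, 13 fell, with a median of -0.22. The exception was Syvn1 (-0.03). Among all tested genes with a promoter, 14 of the 22 with the element fell (63.6%) and 4 rose (18.2%). Of those without it, 22.1% fell and 20.6% rose. Outside the 38, 6 of 13 genes with the element fell (46.2%) and 4 rose (30.8%), with a median log2 change of -0.13. With the second form, Dnajb11 fell by 0.64 and Herpud1 did not pass the test. The greatest differences were not all among genes with a match: Sdf2l1 (-1.93), Pdia4 (-1.39) and Xbp1 (-1.23) had none in the window.

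**Figure D4:**
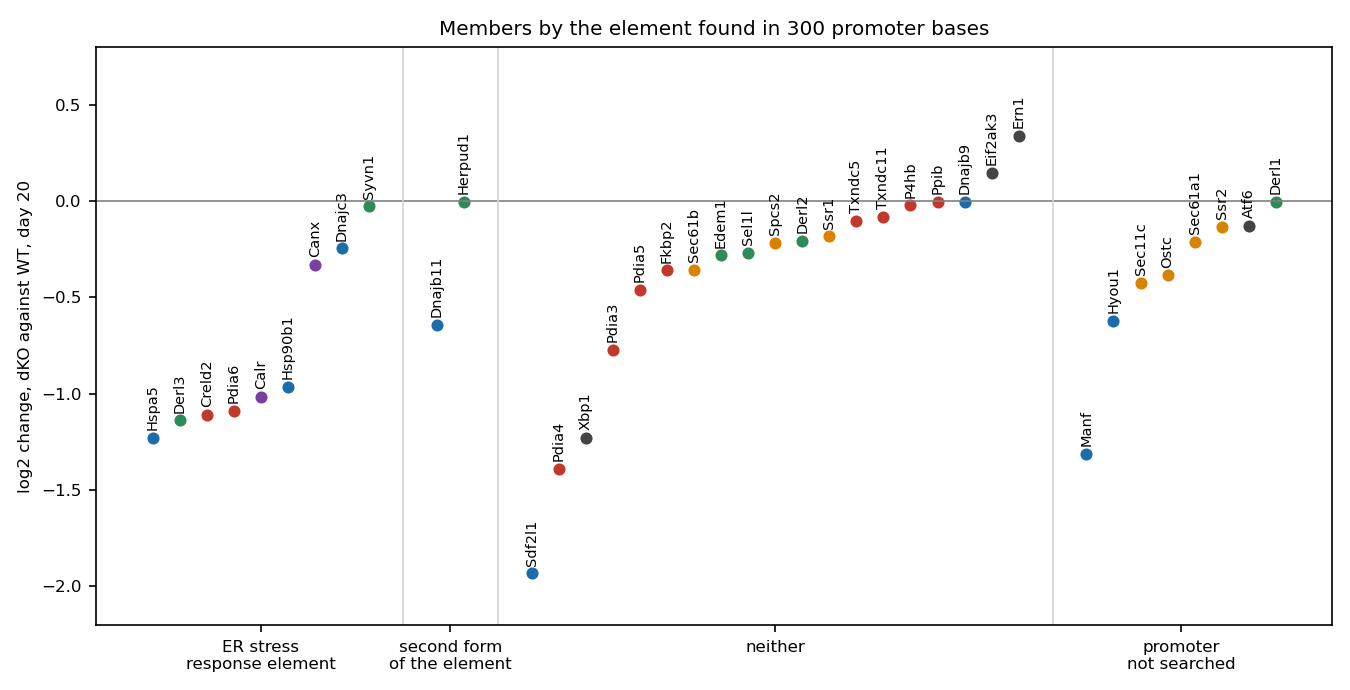
Log2 change of dKO against WT at day 20 (y axis) for each of the 38 genes, grouped along the x axis by the element found in the promoter and coloured by role. Of the 9 genes with the first form, 6 lie near -1 (Hspa5 -1.23 to Hsp90b1 -0.96), but Sdf2l1 at -1.93 is in the group with neither form.

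The wider pathway was read from 7 lists of other ER genes, 162 of which were tested. At day 20, 53 fell and 29 rose, with a median log2 change of -0.06, beside the 19.2% and 18.8% of all genes given earlier. At day 10, 4 of the 162 rose (Tmx1, Rcn1, Tusc3 and Tmed10) and 0 fell, where 3.23% of all genes tested rose and 1.76% fell, so neither share was above that of all genes. At an unadjusted p under 0.05, 29 of the 162 passed at day 10, beside 5294 of all 21657 genes. DESeq2 called 2 lower, beside 978 of all genes. The count higher was 0 without dKO male day 10 replicate 2 and 14 without replicate 1, where all genes gave 8 and 2296.

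Of 38 other folding and disulfide genes 14 fell and 5 rose at day 20, where 19.2% of all genes tested fell and 18.8% rose. Serpinh1, the collagen chaperone Hsp47, had 33.4, 40.8 and 51.1 CPM in WT and 10.2, 12.2 and 19.4 CPM in dKO (-1.62 ± 0.11, adjusted p = 4.28e-09, edgeR). Rcn3 (-1.23) and Rcn1 (-0.57), which encode calcium-binding proteins of the ER lumen, also fell, and Qsox1 (0.32), Prdx4 (0.33) and Dnajc10 (0.18), genes of thiol oxidation and reduction, rose. Of 24 genes of glycosylation and glycoprotein quality control 12 fell and 3 rose, with Magt1 (-0.89) and the oligosaccharyltransferase subunit gene Rpn1 (-0.40) lower, Prkcsh (-0.26), a glucosidase subunit gene, also lower, and Uggt2 (0.37), Pgm3 (0.24) and Alg5 (0.21) higher.

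The PERK, ATF4 and CHOP arm was mixed, with 7 of 15 genes lower and 3 higher. Over all genes tested 19.2% fell and 18.8% rose, so the count higher was near that share. Atf4 had 82.2, 85.0 and 90.4 CPM in WT and 59.8, 63.3 and 70.8 CPM in dKO (-0.40 ± 0.06, adjusted p = 6.14e-06, edgeR). Slc7a11, the cystine transporter gene, fell by 1.12 and Atf5 by 0.58. The 3 that rose were Ddit4 (1.09), an inhibitor of mTORC1 signalling that glucocorticoids also induce, Cebpb (1.21), and Ppp1r15a (0.47), which encodes the phosphatase subunit GADD34. Cebpb was at 1.01 to 1.37 CPM in WT and 1.05 to 3.51 CPM in dKO.

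Among 18 regulators of the response 5 fell and 4 rose, where 19.2% of all genes tested fell and 18.8% rose. Nfya, a subunit of the NF-Y factor that binds the CCAAT part of the element, had 22.8, 25.6 and 28.0 CPM in WT and 12.4, 14.5 and 19.1 CPM in dKO (-0.78 ± 0.09, adjusted p = 3.84e-07, edgeR). Mbtps1, which encodes the protease that makes the first cut in ATF6, rose from 112, 114 and 119 CPM to 140, 153 and 191 CPM (0.45 ± 0.04, adjusted p = 7.35e-08, edgeR). Creb3l2 (-0.43) and Gtf2i (-0.20) fell, and Crebrf (0.52) and Rtcb (0.18), the ligase gene that joins spliced Xbp1 mRNA, rose.

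Other genes of ER-associated degradation had 3 of 26 lower (Edem3 -0.23, Fam8a1 -0.25, Selenok -0.15) and 6 higher, led by Get4 (0.57), Erlec1 (0.39) and Bag6 (0.26). Other translocation genes had 4 of 19 lower (among them Srprb -0.45, Spcs1 -0.26, Spcs3 -0.23) and 3 higher (Srp9 0.25, Sec61a2 0.16, Ssr3 0.14). Over all genes tested 19.2% fell and 18.8% rose. Both counts of the translocation genes were near these shares, as was the count higher of the degradation genes. Of 22 genes of export to the Golgi and retrieval 8 fell, with Bet1 (-0.48), Tmed2 (-0.20) and Tmed10 (-0.20) by p, and 5 rose, with Sec24d (0.35), Sec22b (0.19) and Golgb1 (0.11).

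**Figure D5:**
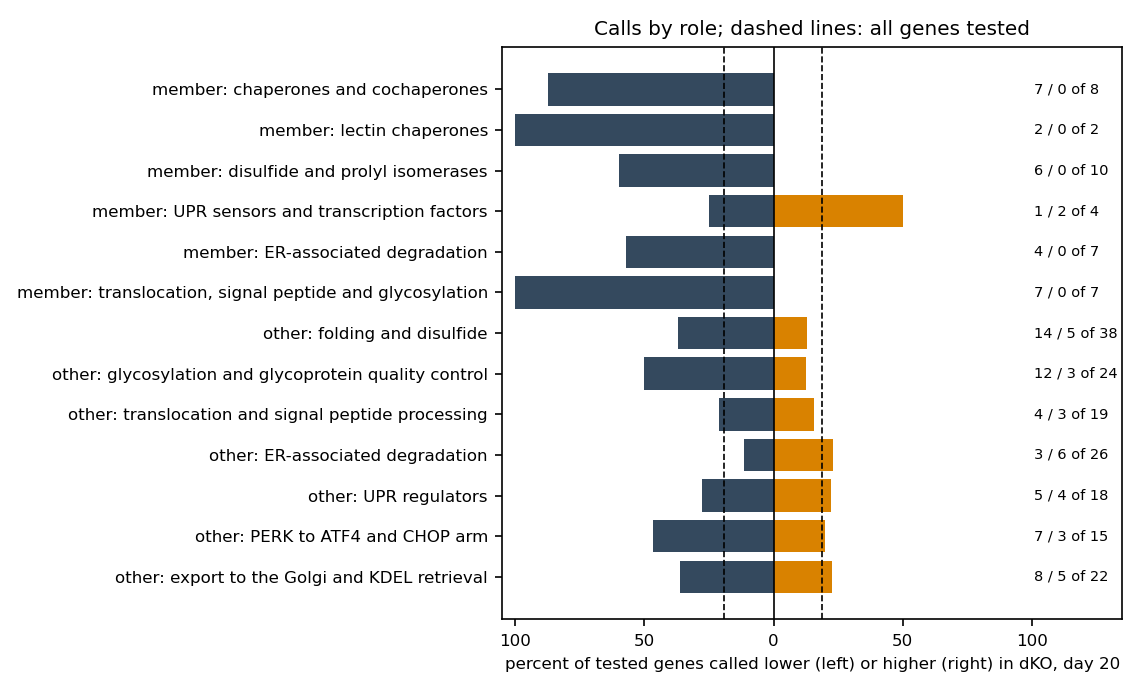
Percent of tested genes called lower (bars to the left of 0) or higher (bars to the right) in dKO at day 20 for each role (y axis) of the 38 genes ("member") and of the other ER genes ("other"), with the counts lower and higher at the right edge. Dashed lines mark 19.2% lower and 18.8% higher over all genes tested; all 7 translocation and both lectin genes of the 38 are lower, and other degradation genes have 3 lower and 6 higher.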

How the data were processed

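RNA was measured in 24 libraries prepared with TruSeq Stranded mRNA, per the labels' protocols. The authors deposited raw counts per gene for each library, made with STAR 2.5.2b and HTSeq on GRCm38.p5, per the submitters' processing notes; the annotation they counted on is not given in the sources used here. The count column for the reverse strand was used, and 4 entries that name no gene were left out of totals: no-feature reads were 41.7 to 47.5% of reads in the 23 libraries used. The library with 45964 gene counts was left out. No 2 libraries held identical values. Symbols and positions are from GENCODE M21 (GRCm38), and exon lengths are the union of exons.

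The tests used edgeR 4.0.16 in R 4.3.3, with filterByExpr (21657 genes kept), TMM scaling, 1 mean for each of 8 groups, robust glmQLFit and glmQLFTest, two-sided, 15 residual degrees of freedom, calls at an adjusted p under 0.05 over all genes tested. SE is the log2 change divided by the root of F. CPM use TMM factors. Both sexes are weighted equally within a day. The scripts were tested on simulated data. Alternatives were DESeq2 1.42.0, limma-voom (limma 3.58.1), 1 surrogate variable (sva 3.50.0), RLE scaling, other filters, both strands, a change above 1.2-fold, only the groups compared, each library left out, and edgeR's newer quasi-likelihood, the last chosen after seeing the data.

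The 38 genes and the other lists were chosen with earlier results of these data known. Levels were given for Hspa5, Xbp1, the 3 sensors and the 2 genes of smallest p in each role, with other values added after they were seen; of other ER genes, up to 3 called per list and direction by p were named, and Tmx1, Rcn1, Tusc3 and Tmed10 at day 10 because they were the 4 called. Protein sequences were not used here. Precision is set by the libraries per group and by depth; 1 count is at most 0.109 CPM.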

Additional observations from a re-analysis of the deposited data

Results flagged for a closer look

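The dKO effect differed between day 20 and day 10, by the test of the difference itself (edgeR, genotype by day, adjusted over all genes tested), for 26 of the 38 genes. On the log2 scale the difference among chaperones was -1.32 for Hspa5, -0.99 for Hsp90b1, -0.67 for Hyou1, -0.66 for Dnajb11, -0.24 for Dnajc3, -1.78 for Sdf2l1 and -1.30 for Manf. The lectin chaperones gave -1.06 for Calr and -0.44 for Canx. Among isomerases it was -0.81 for Pdia3, -1.35 for Pdia4, -0.82 for Pdia5, -1.20 for Pdia6, -1.05 for Creld2 and -0.39 for Fkbp2. Of the sensors and Xbp1, Ern1 was at 0.40, Eif2ak3 at 0.32 and Xbp1 at -1.17. Degradation genes were at -0.31 for Sel1l and -0.27 for Edem1. The translocation and processing genes were at -0.21 for Sec61a1, -0.41 for Sec61b, -0.19 for Ssr1, -0.39 for Sec11c, -0.34 for Spcs2 and -0.45 for Ostc. Without dKO male day 10 replicate 2, the library that stood apart at day 10, 21 genes were lower and 2 higher on this term. Over all 22520 genes tested in that fit, 2332 were lower and 2552 higher. The fit with that library gave 3180 lower and 2947 higher of 21657.

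In 5 of 152 combinations of gene with genotype and day, 1 library lay far from the others by Dixon's criterion, where chance gives about 1 in 20. Pdia5 was at 3.87 CPM in WT female day 10 replicate 2, and Txndc11 at 60.1 CPM in dKO male day 20 replicate 1. Creld2 was at 10.9 CPM in dKO female day 20 replicate 3 and at 12.9 CPM in WT male day 10 replicate 1. Derl1 was at 52.0 CPM in dKO female day 10 replicate 2.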

How the results depend on the processing

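None of the results recomputed changed direction past its threshold under any alternative run. Requiring a change above 1.2-fold gave, of the 38 genes, 0 higher and 15 lower at day 20, 0 higher and 14 lower for genotype by day, 0 higher and 17 lower in males, 12 higher and 5 lower in WT with age and 6 higher in dKO with age; of the other ER genes it gave 7 higher and 11 lower at day 20 and 0 higher at day 10. The count higher at day 20 was 1 with no filter and 1 with both strands. DESeq2 gave 3 lower at day 10 and 1 lower for genotype by sex. It gave 2 other ER genes lower at day 10, where no filter gave 1. Over all 21657 genes DESeq2 gave 978 lower at day 10 and 164 lower for genotype by sex. The 1.2-fold requirement gave 1533 higher and 1372 lower over all genes at day 20. With 1 surrogate variable the counts higher were 0 for other ER genes at day 10, 0 for genotype by day and 1 in females. With only the groups compared they were 0 for other ER genes at day 10, and genotype by sex had 1 higher and 1 lower. Counts over all genes in these fits were computed only for dKO against WT, both sexes together, at day 20 and day 10. The same holds for the 1.2-fold requirement. Counts of the 38 genes in other comparisons there have no share of all genes beside them. Leaving out 1 library at a time gave 1 to 2 higher and 25 to 28 lower at day 20, 0 to 3 lower at day 10, 1 to 3 higher in males, and, of other ER genes at day 10, 0 to 14 higher and 0 to 8 lower. The cause of these shifts was not tested.

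No paired analysis was possible because the labels give no replicate numbers. Ern1, Canx, Sel1l and Edem1 lost the day 20 call only where more than 1.2-fold was required. Day 10 rests on 5 dKO libraries. Its counts over all genes ran from 8 to 2296 higher and from 7 to 2220 lower with 1 library left out, and under the other settings from 4 (1 surrogate variable) to 1127 higher and from 2 (only the groups compared) to 978 lower. Depth limits Derl3 and Pdia5, which lay near or below a few CPM.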
